A study of Mus musculus with 4 samples.

Results

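The intervals described here are 12240 narrow H3K36me3 peaks that were called in germ cells of the KI mouse strain and had no counterpart in the B6 strain. They were chosen by called positions alone, from the KI list of narrow (refined) peaks, by 3 conditions. A peak had to lie on 1 of the 19 autosomes, share no base with any refined or broad B6 interval, and share no base with the span of a protein-coding gene in the GENCODE annotation of mm9. They made up 17.95% of the 68189 refined KI peaks on autosomes. The KI list held 72692 refined peaks on all chromosomes, and the lists of both strains together held 131194. They are called KI-specific peaks outside genes below. Their absence from the B6 lists and their place outside genes are the rule by which they were picked and are not results.

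H3K36me3 ChIP-seq was done on spermatocytes of C57BL/6J (B6) and of B6.Cg-Prdm9<tm1.1Kpgn>/Kpgn (KI) mice at 14 dpp (days post-partum), with an input of unprecipitated chromatin for each strain that the labels place at 15 dpp. The KI strain carries a knock-in at the endogenous Prdm9 gene and shares the rest of the B6 genome. Its last exon, exon 11, comes from the castaneus allele, so that both strains make PRDM9 but with different zinc fingers. Chromatin was fixed with formaldehyde and cut with MNase, an enzyme that digests the DNA between nucleosomes, and the antibody label of both ChIP samples reads H3K36me6 where the titles have H3K36me3. The authors merged 2 biological replicates per strain before they called peaks, so each strain has 1 list of refined peaks and 1 of broad regions, with positions only. There are no heights, read counts or scores in the lists, and no replicate error can be given. The merged KI data were deeper than the B6 data. A KI peak without a B6 interval can reflect PRDM9, depth or another difference between the lists, which cannot be told apart for a single peak. Positions do not show a cell type, so the spermatocyte label could not be checked against marker genes.

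PRDM9 is a histone methyltransferase of early meiotic prophase. Its zinc fingers read a DNA sequence, and its PR/SET domain trimethylates lysines of histone H3 on the nucleosomes beside the bound site, where recombination hotspots form. Along the bodies of transcribed genes H3K36me3 is laid down by SETD2, which travels with RNA polymerase II. Different zinc fingers place PRDM9 at different sites.

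The DNA under these peaks is shown first because it had no part in the rule. Windows of 400 bp at the peak midpoints on the odd-numbered autosomes were compared with those of the mirror set, the 8023 B6-specific peaks outside genes, for 10-base words on either strand. The word that ranked first was GGAATGTGAC. It was then counted on the 9 even-numbered autosomes, which had no part in the choice. There it occurred in 85 of 5810 windows of KI-specific peaks outside genes, or 1.46%, against 0.0518% of 3861 B6-specific windows and 0.0688% of 11620 windows taken 2000 bp to either side (flanks). On each even-numbered autosome for which sequence is printed, the peak with the word nearest to its midpoint is shown with 25 bases on either side, in the build mm9, with the word in capitals.
Near Zeb2, chr2:45208895-45208954, plus strand: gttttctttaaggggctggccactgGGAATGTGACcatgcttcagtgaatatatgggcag
Near 2610301B20Rik, chr4:10381428-10381487, minus strand: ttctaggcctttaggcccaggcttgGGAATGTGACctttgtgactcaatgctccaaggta
Near Tcfec, chr6:16884110-16884169, minus strand: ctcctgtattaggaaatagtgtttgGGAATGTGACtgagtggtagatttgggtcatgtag
Near Cd209f, chr8:4067251-4067310, minus strand: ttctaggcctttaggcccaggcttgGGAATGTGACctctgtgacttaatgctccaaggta
Near Gm10787, chr10:76460722-76460781, plus strand: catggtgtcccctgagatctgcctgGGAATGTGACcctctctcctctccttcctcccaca
Near Spanxn4, chr12:63889382-63889441, plus strand: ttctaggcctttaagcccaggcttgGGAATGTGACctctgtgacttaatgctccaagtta
Near Zfhx2, chr14:55679160-55679219, minus strand: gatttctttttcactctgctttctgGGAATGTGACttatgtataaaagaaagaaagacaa
Near Dscam, chr16:97457646-97457705, plus strand: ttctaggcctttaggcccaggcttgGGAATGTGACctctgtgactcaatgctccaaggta

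The stretches near 2610301B20Rik, Cd209f, Spanxn4 and Dscam were near-copies of each other, with at least 93.3% identical bases between any pair. Any other pair shared at most 53.3% of its bases, the word included. All 16-base words of the copies near 2610301B20Rik, Cd209f and Dscam occurred 20 times or more in the autosomes, so these peaks lie in a dispersed repeat. Near Tcfec none of the 16-base words did. The genes are the nearest protein-coding genes and stand 1281 bp (Zfhx2) to 420127 bp (2610301B20Rik) away. Zeb2 and Zfhx2 are transcription factor genes, Cd209f belongs to a family of C-type lectins, and Dscam encodes a neuronal adhesion molecule.

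A weight matrix of 36 positions was then grown from this word on the odd-numbered autosomes, in rounds that gathered further windows scoring above the level reached by 1% of flank windows. The positions at which 1 base held 60% or more of the sites read GNCTNGGNNTNTGNCNNTT. The highest-scoring stretch with no repeated 16-base word on each of the same autosomes follows, with capitals for bases that equal this consensus. A base in lower case differs from the consensus or stands at a position where no base reached 60%.
Near Cdca7, chr2:72408986-72409021, plus strand: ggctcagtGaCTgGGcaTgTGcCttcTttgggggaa
Near Tnc, chr4:64102438-64102473, minus strand: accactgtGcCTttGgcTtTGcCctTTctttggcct
Near Agk, chr6:40268596-40268631, minus strand: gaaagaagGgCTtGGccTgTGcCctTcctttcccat
Near Ttc29, chr8:80707512-80707547, minus strand: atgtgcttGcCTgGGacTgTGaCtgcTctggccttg
Near Gm10787, chr10:76460734-76460769, plus strand: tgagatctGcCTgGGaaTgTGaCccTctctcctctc
Near Tmem179, chr12:113775706-113775741, minus strand: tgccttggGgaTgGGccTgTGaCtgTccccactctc
Near Pcdh17, chr14:85993644-85993679, plus strand: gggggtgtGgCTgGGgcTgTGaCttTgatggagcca
Near Nsun3, chr16:62427944-62427979, plus strand: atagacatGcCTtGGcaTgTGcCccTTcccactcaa

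For contrast, the best-matched B6-specific peak outside genes on each of chromosomes 2, 4, 6 and 8 is given for a matrix grown in the same way from B6-specific peaks, with capitals for bases equal to the B6 consensus CCAGAAGNTGCTNCCNNNTG.
Near Celf2, chr2:7559178-7559213, minus strand: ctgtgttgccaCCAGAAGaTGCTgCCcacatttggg
Near Tmem215, chr4:40503682-40503717, minus strand: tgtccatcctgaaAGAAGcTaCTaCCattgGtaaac
Near E330021D16Rik, chr6:136388059-136388094, plus strand: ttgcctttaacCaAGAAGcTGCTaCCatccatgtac
Near Eri1, chr8:36500098-36500133, minus strand: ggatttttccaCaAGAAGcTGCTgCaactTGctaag

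On the even-numbered autosomes 1065 of 5810 KI-specific peaks outside genes had a match to the KI matrix in their 400 bp, a share of 18.3% (Wilson 95% interval 17.4 to 19.3). With the threshold at 0.5% or 2% of flank windows in place of 1%, the share was 9.90% or 28.3%. All refined KI peaks on those autosomes, genes included, had a match in 7.498%. The flanks of the KI-specific peaks had one in 0.818% (0.669 to 0.998) and the B6-specific peaks outside genes in 0.725% (0.502 to 1.05), and the KI-specific share was 25.3 times the B6-specific one. The share was higher in the KI-specific set on 9 of 9 autosomes, where it ran from 17.4% to 19.4% against 0.254% to 1.03% in the B6-specific set. The intervals cover counting error only, and neighbouring peaks are not independent samples. The KI-specific peaks inside genes had a match in 14.7% (13.7 to 15.7), while the 1663 refined KI peaks outside genes that overlap a refined B6 peak had one in 2.62% of those on even-numbered autosomes (1.68 to 4.06).

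The converse held for the B6 matrix at lower shares. It matched 4.38% (3.78 to 5.07) of B6-specific peaks outside genes and 0.361% (0.237 to 0.552) of the KI-specific ones, which was below the 1.43% (1.23 to 1.66) of their own flanks. The list of the 20 best KI words occurred in 6.20% (5.60 to 6.85) of KI-specific peaks outside genes, in 1.35% (1.03 to 1.76) of the B6-specific ones, in 3.10% (2.64 to 3.65) of KI-specific peaks inside genes, in 2.81% (2.63 to 2.99) of all refined KI peaks and in 1.46% (1.26 to 1.70) of flanks. Most words of this list, such as TGGGCCTAAA, GCCTAAAGGC and ACTCAATGCT, can be read on either strand of the repeat copy printed near 2610301B20Rik. The share of the list therefore counts copies of that repeat in part, and how large a part was not tested. The consensus spelled out letter by letter, GNCTNGGNNTNTGNCNNTT on either strand, is strict and was found in 42 of 5810 KI-specific windows, or 0.723%, against 0 of 3861 B6-specific windows, where the upper limit of the Wilson interval is 0.0994%. It was in 0.303% of the windows of all refined KI peaks and in 0.0222% of all 400 bp stretches of the even-numbered autosomes.

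The matrix depends on the window in which it was grown. In windows of 200 bp the word that ranked first was TAATCATAAA, and in windows of 1000 bp it was TGGGCCTAAA, a word of the dispersed repeat shown above. The matrices grown from these words matched 1.997% and 2.44% of KI-specific peaks outside genes, 1.45 and 3.37 times the B6-specific share. Started from GGAATGTGAC again, the matrix matched 1.36% in windows of 200 bp, which reach 100 bp from the midpoint, and 12.5% in windows of 1000 bp. Grown on the even-numbered autosomes in 400 bp windows and counted on the odd-numbered ones, the matrix started from GAATGTGACC, read GNCTNGGNNTGTGNCNNNT at 60% and matched 18.9%.

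The matches did not lie at the middle of the peaks. In windows of 1000 bp searched with the same matrix, 1525 of 5810 KI-specific peaks outside genes had a match (26.2%, 25.1 to 27.4), against 2.44% (2.17 to 2.73) of flanks and 1.53% (1.19 to 1.97) of B6-specific peaks. The median distance from the peak's midpoint was 145 bp with quartiles of 112 and 215 bp, and 779 matches (51.1%) lay between 100 and 180 bp away. Only 55 (3.61%) lay within 40 bp of the midpoint. The match stood near the edge of the peak, a median of 1 bp inside it, with quartiles of -36 and 37 bp, where negative values lie outside the peak. Matches close to the midpoint were left out of the count of sides, which kept 1433 peaks. The site was to the right of the midpoint, read along its own strand, in 50.8% (48.2 to 53.4) of these, an interval that includes equal shares on both sides.

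**Figure D1:**
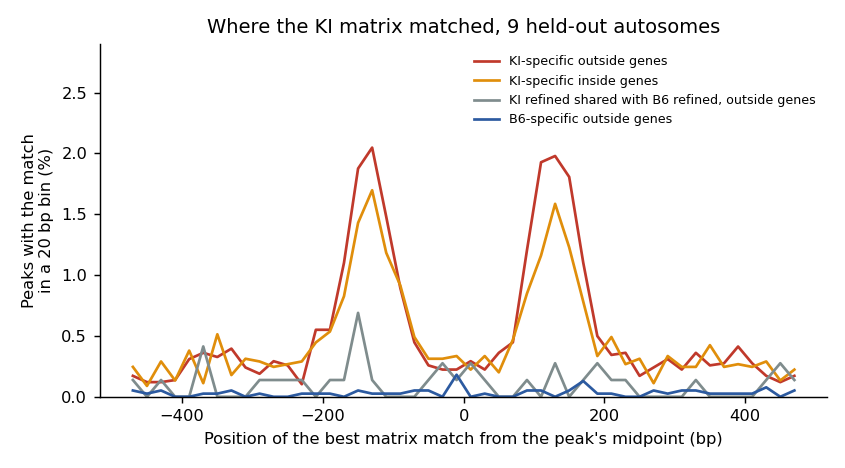
Position of the best KI matrix match relative to the peak midpoint in bp, as the percent of peaks with a match in each 20 bp bin, for 4 sets of peaks on the even-numbered autosomes. KI-specific peaks outside genes and inside genes show a pair of maxima at about the same distance left and right of the midpoint with few matches between them, while B6-specific peaks stay near 0 throughout.

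Whole peaks make this arrangement visible. The 3 peaks below are the best-matched ones of up to 300 bp on chromosomes 2, 12 and 16, extended to the end of the match and printed on the plus strand, with the 36 bp match in capitals. The match is at the left end near Cdca7 and Nsun3 and at the right end near Tmem179.
Near Cdca7, chr2:72408986-72409281: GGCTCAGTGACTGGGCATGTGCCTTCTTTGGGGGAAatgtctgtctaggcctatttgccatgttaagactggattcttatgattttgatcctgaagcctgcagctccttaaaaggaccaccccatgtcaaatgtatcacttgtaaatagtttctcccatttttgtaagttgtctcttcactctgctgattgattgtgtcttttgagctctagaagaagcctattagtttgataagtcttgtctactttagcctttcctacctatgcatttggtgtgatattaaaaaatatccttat
Near Tmem179, chr12:113775497-113775741: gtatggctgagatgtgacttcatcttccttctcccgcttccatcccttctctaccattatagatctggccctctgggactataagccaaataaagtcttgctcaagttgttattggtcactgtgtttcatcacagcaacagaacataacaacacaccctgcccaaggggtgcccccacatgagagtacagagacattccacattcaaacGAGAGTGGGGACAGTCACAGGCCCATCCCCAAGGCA
Near Nsun3, chr16:62427944-62428213: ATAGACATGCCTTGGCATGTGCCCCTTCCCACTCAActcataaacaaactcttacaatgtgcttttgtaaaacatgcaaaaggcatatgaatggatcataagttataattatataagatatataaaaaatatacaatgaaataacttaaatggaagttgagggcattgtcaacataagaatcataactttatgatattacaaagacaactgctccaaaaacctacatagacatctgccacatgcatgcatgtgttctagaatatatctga

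The KI-specific peaks outside genes had a median width of 294 bp (quartiles 252 and 481, range 99 to 3193 bp) and lay in broad regions with a median of 2500 bp, at 49.7% of the region's length in the median. The 12240 peaks lay in 11834 broad regions, of which 405 held more than 1. In 404 regions that held exactly a pair, the midpoints were a median of 674.5 bp apart. For pairs over 700 bp apart on the even-numbered autosomes a matrix match lay between the midpoints in 19 of 92 pairs (20.7%, 13.6 to 30.0) and on the outer sides in 3.26% of 184 stretches. For pairs 300 to 700 bp apart the shares were 10.9% (6.35 to 18.1) and 3.18% (1.55 to 6.42).

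The share of peaks with a match in 1000 bp, 26.2% over all KI-specific peaks outside genes, was larger in wider broad regions. It was 11.4% in regions of 2000 bp, the narrowest that the caller gave, and 22.4%, 33.2%, 41.0% and 45.6% in regions of 2500, 3000, 3500 and 4000 bp. In regions of 4500 to 5000 bp it reached 54.4% (47.9 to 60.8) of 226 peaks and in wider ones 52.3% (41.9 to 62.6) of 86 peaks, and the intervals of the last 3 classes overlap. The KI-specific peaks inside genes followed the same course from 9.88% to 50.4%. B6-specific peaks outside genes had a match in 1.06% of regions of 2000 bp and in 0 of 54 regions of 5500 bp and over, where the upper limit is 6.64%.

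**Figure D2:**
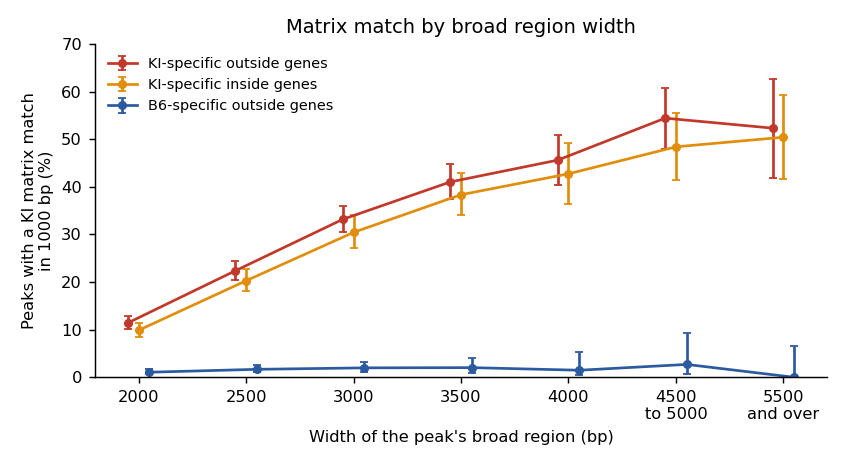
Percent of peaks with a KI matrix match in 1000 bp, by the width of the broad region in bp that holds the peak, on the even-numbered autosomes. Bars are Wilson 95% intervals. The share climbs from 11.4% to over 50% in KI-specific peaks outside genes, nearly as much in those inside genes, and stays below 3% in B6-specific peaks.

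The shares that follow are also for windows of 1000 bp, with 26.2% over the whole set. Width of the refined peak itself went the other way, from 30.5% (28.7 to 32.5) in peaks of up to 270 bp to 21.4% (19.1 to 23.8) in peaks over 540 bp. In the latter the match was a median of 270.5 bp from the midpoint. Peaks wider than 1000 bp have their edges outside the window, where a match could not be counted. Peaks over 50 kb from any B6 interval had a match in 29.7% (27.9 to 31.7), those within 5 kb of one in 18.9% (16.6 to 21.6). By distance to a protein-coding gene the share was 22.6% (19.5 to 26.0) within 5 kb and 31.1% (26.9 to 35.6) beyond 500 kb.

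Read from the sequence side, the matrix had 25844 matches on the even-numbered autosomes, of which 14596 lay outside protein-coding genes. A refined KI peak was within 250 bp of 12.8% (12.3 to 13.4) of those outside genes and a refined B6 peak within 250 bp of 0.808% (0.676 to 0.967). Most sequence matches therefore had no called peak. Among matches with no repeated 16-base word, the share with a KI peak increased in each class of the score, from 9.71% (8.87 to 10.6) of 4439 matches scoring up to 17 bits to 58.9% (45.9 to 70.8) of 56 matches at 23 to 25 bits and 73.3% (48.0 to 89.1) of 15 matches above 25 bits. Among matches in which over 50% of the 16-base words are repeated, the share was 3.33% (2.62 to 4.21) in the lowest class and 15.0% (21 of 140) at 23 to 25 bits. It was 70.2% (64.3 to 75.5) above 25 bits, where 177 of 252 repeat copies had a refined KI peak and 4 of 252 a refined B6 peak.

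**Figure D3:**
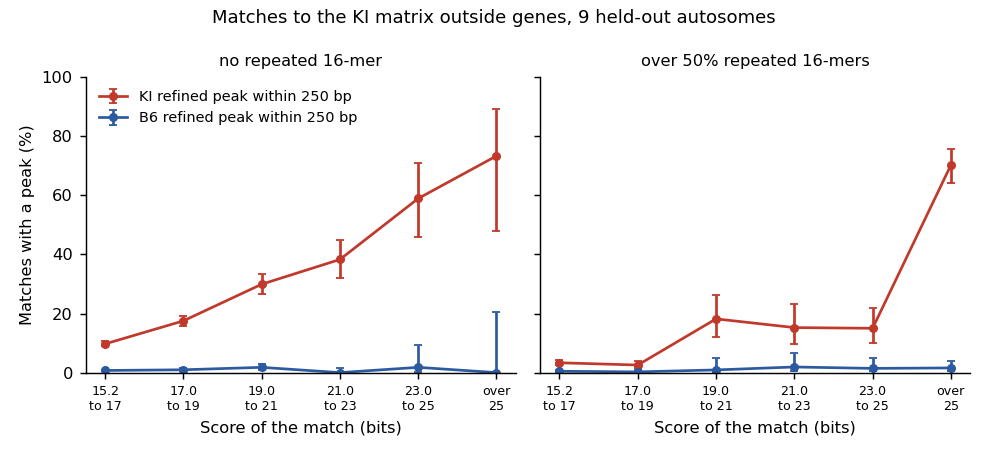
Percent of KI matrix matches outside protein-coding genes, on the even-numbered autosomes, that have a refined KI or B6 peak within 250 bp, by the score of the match in bits, with Wilson 95% intervals. Without repeated 16-base words (left) the KI share climbs from 9.71% to 73.3%, in repeated DNA (right) it stays at or below 18.2% up to 25 bits and is 70.2% above, and the B6 share is below 2% in every class.

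The repeat accounted for a minority of the matched peaks. A match was found in 2238 KI-specific peaks outside genes on all autosomes, those on which the matrix was grown included. Of these, 65.8% had a site with no repeated 16-base word and 22.7% a site with some, but not over 50%. The other 11.5% had a site in which over 50% of these words are repeated. The consensus of the latter sites was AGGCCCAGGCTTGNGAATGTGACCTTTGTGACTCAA, with 35 of 36 positions fixed at 60%, while the sites without repeated words kept 11 positions and the same consensus as the whole. By the 400 bp window, 1706 KI-specific peaks outside genes (13.9%) were repeat-like, meaning that over 50% of their 16-base words occur 20 times or more, against 16.4% of flanks. The repeat-like windows had a match in 10.3% (8.43 to 12.5) and the others in 19.7% (18.7 to 20.9). The word GGAATGTGAC was in the windows of 195 KI-specific peaks outside genes on all autosomes, 60 of them repeat-like and 136 with a matrix match. Only reads with a unique position were kept by the authors, so a repeat copy without unique reads could not be called.

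The median GC content was 42.0% in the 400 bp windows and 42.5% in flanks, a difference of -0.50 percentage points that was 0 in windows of 200 bp. Windows rich in CpG, with a GC content above 50% and an observed over expected CpG ratio above 0.6 as in CpG islands, numbered 3 of 12240 (0.0245%) against 0.560% of flanks. They were likewise rarer than in flanks in B6-specific peaks outside genes, with 0.125% against 0.536%, and in shared ones, with 0.120% against 2.65%. The median GC content of B6-specific peaks was 40.75%, against 42.0% in their flanks.

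The peaks were spread over all autosomes. There were 8.46 per Mb of sequence outside protein-coding genes, against 5.54 per Mb for B6-specific peaks, and the KI-specific ones were more numerous on 19 of 19 autosomes, by 1.37 to 1.90 times. The whole KI list was also the longer one, with 72692 of the 131194 refined peaks of both strains. On the X chromosome, which the rule leaves out, the KI count was the lower one, 714 against 820. The lowest density of KI-specific peaks was 6.69 per Mb on chromosome 10 and the highest 10.9 per Mb on chromosome 11. Along the chromosome, with unsequenced bases counted in its length, 17.4% of the peaks lay in the fifth nearest to the centromere and up to 21.6% in each of the others. For B6-specific peaks outside genes these shares were 15.8% and up to 22.1%. Between midpoints, the nearest other KI-specific peak outside genes was a median of 37382.5 bp away. Between nearest ends, the nearest peak of the smaller B6-specific set was a median of 80737.5 bp away, so the measures differ.

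**Figure D4:**
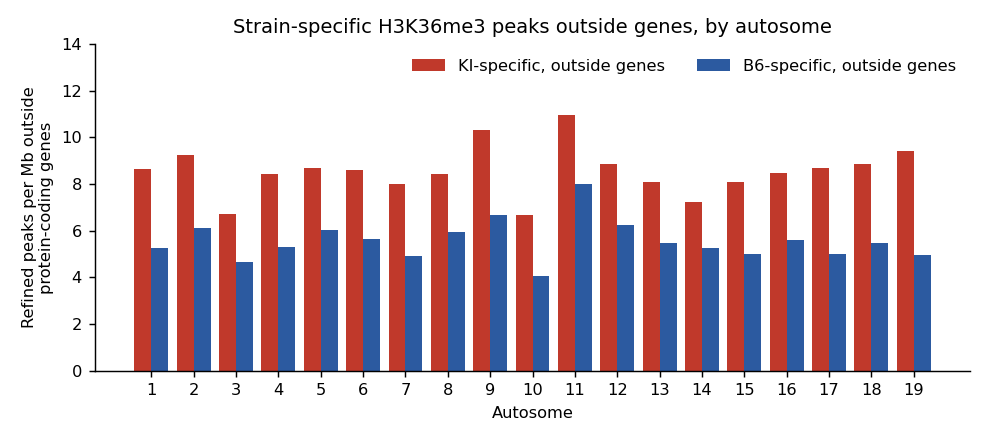
Number of KI-specific and of B6-specific refined peaks outside genes per Mb of sequence outside protein-coding genes, for each of the 19 autosomes. Each bar is 1 count from 1 pooled list, without replicates, and the KI bar is the higher one on every autosome, between 6.69 and 10.9 per Mb.

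The median distance to the nearest protein-coding gene was 45540 bp for KI-specific peaks outside genes, 34692 bp for B6-specific ones and 8561 bp for KI peaks that overlap a refined B6 peak. Within 5 kb of a gene lay 1419 KI-specific peaks (11.6%, 11.0 to 12.2), against 15.2% of B6-specific and 35.7% of shared ones. Just past the 3′ end of genes, where H3K36me3 of transcribed genes can run on, the shares within 5 kb were 5.40% (5.01 to 5.81), 8.56% and 18.4%. Before the 5′ end they were 6.19% (5.78 to 6.63), 6.64% and 17.3%, so the KI-specific and shared peaks near genes did not lie mainly at 3′ ends. At the other extreme 823 peaks (6.72%, 6.29 to 7.18) lay over 500 kb from any protein-coding gene, against 7.28% (6.73 to 7.87) of B6-specific ones. The peaks nearest to genes rest in part on the margin of the rule. Without peaks that have a B6 interval within 5000 bp, the share within 5 kb of a gene was 7.45%.

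**Figure D5:**
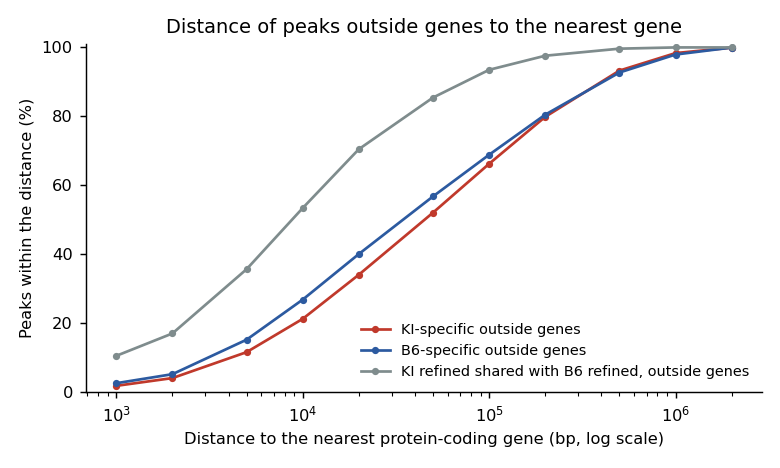
Cumulative percent of peaks outside genes that lie within a given distance in bp (log scale) of the nearest protein-coding gene. The curve of shared peaks is far to the left, with 35.7% within 5 kb, and the KI-specific curve lies slightly below the B6-specific one at short distances, with 11.6% and 15.2% within 5 kb.

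Genes of other annotated types overlapped 621 KI-specific peaks outside genes (5.07%, 4.70 to 5.48), 112 of them at an exon, against 6.06% (5.56 to 6.60) of B6-specific and 15.1% (13.5 to 16.9) of shared peaks. Among them were 319 peaks in spans of lincRNA genes, long noncoding RNAs between protein-coding genes, of which 36 were at an exon. Of 21418 autosomal protein-coding genes, 5550 were the nearest gene of at least 1 KI-specific peak outside genes. Olfactory receptor genes (Olfr), which stand in clusters and are expressed in the nose, were nearest to 141 peaks (1.15%, 0.978 to 1.36) and are 5.16% of the genes. B6-specific peaks had an Olfr gene nearest in 1.23% and shared peaks in 0.722% (0.413 to 1.26). The share of the genes is not an expected share of nearest genes, because it does not count the sequence around each gene. Zinc finger genes named Zfp were nearest to 1.70% (1.49 to 1.94) of KI-specific, 2.17% (1.87 to 2.51) of B6-specific and 4.57% (3.67 to 5.68) of shared peaks, and are 1.70% of the genes. Homeobox genes of the Hox clusters, 0.187% of the genes, were nearest to 1 KI-specific, 2 B6-specific and 0 shared peaks.

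The widest peak covered 3193 bp at chr3:147922392-147925584, 552966 bp from Lphn2, which encodes an adhesion G protein-coupled receptor. It was followed by 2759 bp at chr3:20307196-20309954, near the angiotensin receptor gene Agtr1b, and 2662 bp at chr7:109657839-109660500, near the olfactory receptor gene Olfr545. Of the 3 peaks farthest from a protein-coding gene, 2 were on chromosome 14, at chr14:82638455-82638682, 2204688 bp from the protocadherin gene Pcdh17, and at chr14:82609586-82609837, 2186919 bp from Olfm4, and 1 was on chromosome 18, 2169701 bp from Celf4. These 3 peaks were 228 to 280 bp wide, close to the median of all.

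At the margin of the rule, 370 KI-specific peaks outside genes had a B6 interval within 500 bp, 636 within 1000 bp and 2180 within 5000 bp. The median distance was 31194.5 bp with quartiles of 8682 and 83288 bp. The nearest were 1 bp away, at chr16:30449501-30449916 near Atp13a3 and at chr3:35776621-35777000 near Dcun1d1, and 2 bp away at chr9:85702002-85703223 near 9330154J02Rik. Just outside the rule, 5689 KI peaks outside genes were left out for a B6 interval, 1663 for a refined peak and 4026 for a broad region alone, and 113 of the 5689 overlapped it by at most 100 bp, the least by 1 bp. Of the 12240 peaks, 568 (4.64%) lay in a KI broad region that overlapped a B6 broad region.

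The window of 1 Mb with the most KI-specific peaks outside genes was chr1:53000001-54000000, with 42 of them and 6 B6-specific ones, against a median of 5 in the 2410 windows that were counted. It holds 10 protein-coding genes, among them Mstn, which encodes the muscle growth inhibitor myostatin, the mismatch repair gene Pms1 and Dnahc7a, an axonemal dynein heavy chain. The peaks lay in 38 broad regions. In this window 1 of 42 peaks had a matrix match in 400 bp and 10 were repeat-like, beside a match in 18.3% and repeat-like windows in 13.9% of the whole set. Chromosome 1 is 1 of the autosomes on which the matrix was grown.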

How the data were processed

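ChIP DNA and input DNA of each strain were sequenced by the authors, aligned to mm9 with BWA (1.2.3 in the submitters' processing notes) and reduced to reads of unique position. For peak calling the replicates of a strain were merged and set against its input in ZINBA, with windows of 1000 bp offset by 500 bp and a WinGap of 250. The deposited files hold positions in 3 columns (chromosome, start, end) and no signal or count, so the depth behind a peak is unknown. The 2 lists of a strain run in parallel, and row by row each refined peak lies in its broad region.

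Overlap (1 bp) was found in Python 3.11.15 (pandas 2.3.3, numpy 2.4.6), and bedtools 2.31.1 gave the same 12240 peaks. Genes were those of GENCODE on mm9, and tables of another build were not used. The 10-base words (the 20 with the highest lower bound of the log odds, simple repeats left out) and the matrix (36 positions, 15 rounds, threshold at 1% of flanks) were chosen on odd-numbered autosomes and counted on even-numbered ones. Flanks of 1000 bp windows were centred 3000 bp away. The code was tested on simulated data. Shares have Wilson 95% intervals that cover counting error only. With 1 pooled list per strain there was no test between strains.

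The peaks named are the 3 widest, the 3 farthest from a gene, the 3 nearest to a B6 interval, the densest 1 Mb window, and on each even-numbered autosome except 18 those with the first word nearest the midpoint. The best matrix matches, the whole peaks and the B6 sequences shown were chosen after their values were seen. The members and lists were chosen with earlier results of these data known. Alternatives covered the distance to B6 intervals, the gene set, merging, window, word length, chromosomes, threshold and comparison set.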

Additional observations from a re-analysis of the deposited data

How the results depend on the processing

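Of 41 alternatives, 17 stayed near the value reported and 24 did not. Near means within 1.5 times for the number of peaks. For shares, ratios and the GC difference it means within the 95% counting interval. Only the ratio to B6-specific peaks could reverse, by falling below 1, and it did so in no alternative. The counts, shares and GC difference were not checked for a reversal. No paired analysis was possible because the lists hold 1 pooled sample per strain and the result comes from no test, and no replicate could be left out. The number of peaks was between 10060 and 11785 under the 5 other rules. Without peaks that have a B6 interval within 5000 bp, the share within 5 kb of a gene was 7.45% and the matrix share 19.6%. The share with a word of the KI list was 3.79% in 200 bp and 7.83% in 1000 bp windows, 29.6% with 8-base and 3.22% with 12-base words, 6.998% with the chromosomes exchanged and 5.11% with words chosen against flanks. The matrix share was 9.90% with a threshold at 0.5% of flanks and 28.3% at 2%. The matrix grown and searched in 200 bp gave 1.997% and a ratio to B6-specific peaks of 1.45, and in 1000 bp 2.44% and 3.37.

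Chosen after seeing the data, leaving repeat-like windows out of the count gave 19.7%, and growing the matrix for 5 rounds gave 16.8%. The matrix behind the 19.7% was still grown with repeat-like windows included. The matrix of the 400 bp windows found 2.96% in 200 bp (ratio 9.53) and 26.2% in 1000 bp (ratio 17.2). Started from the same word, it gave 1.36% (ratio 1.81) when grown in 200 bp and 12.5% in 1000 bp. The GC difference was 0 percentage points in 200 bp windows. The reference has no lower-case bases, so the alternative with soft-masked repeats was not run, and the 16-base words took its place. With no heights, counts or replicates, the strength of a peak and the error of each list are unknown.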

Other observations

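The next densest windows of 1 Mb, chosen after their values were seen, were chr1:46000001-47000000 with 37 KI-specific and 7 B6-specific peaks outside genes, chr13:50000001-51000000 with 34 and 1, chr15:74000001-75000000 with 28 and 8, and chr7:48000001-49000000 with 25 and 19. The first of them holds Dnahc7b and Dnahc7c, relatives of the dynein gene Dnahc7a in the densest window, and the window on chromosome 15 holds the Ly6 family of cell surface proteins. A matrix match in 400 bp was present in 1, 1, 1 and 0 of these peaks, and 9, 3, 2 and 3 were repeat-like. On the even-numbered autosomes the share with a match was 20.96% (Wilson 95% interval 18.9 to 23.2) in windows with 1 to 4 KI-specific peaks, 18.2% (16.9 to 19.6) with 5 to 9, 16.6% with 10 to 14 and 13.8% (10.6 to 17.9) with 15 or more. The genes most often nearest were Dnahc7a for 26 peaks, Apob, which encodes apolipoprotein B, for 22, and Dnahc7c and Fam19a5 for 20 each.

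On the X chromosome, which the rule leaves out, 714 KI peaks met its other conditions and 820 B6 peaks the mirrored ones. The KI matrix matched 11.3% (9.22 to 13.9) of the former, 0.420% (0.193 to 0.914) of their flanks and 0.976% (0.495 to 1.91) of the latter.

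Among the 4745 KI-specific peaks outside genes on even-numbered autosomes without a matrix match in 400 bp, the word GGTCACAAAA, which is also in the KI list, occurred in 92 (1.94%), 80 of them repeat-like, against 0.0777% of B6-specific peaks and 0.337% of flanks.

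The widest broad region that held a KI-specific peak outside genes was 36500 bp long, with the peak at chr19:37338439-37338701, 4532 bp from Ide, the gene of the insulin-degrading enzyme, and 300 bp from a B6 interval.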
